A study of Mus musculus with 12 samples.

Results

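The 59 genes described here drive or mark progress through the cell division cycle, 29 of G1 and S phase and 30 of G2 and mitosis. They were picked by symbol from lists of G1/S and G2/M genes, a rule that uses no measured value. The members and lists were, however, chosen with earlier results of these data known. All 59 were found among the 25899 genes of the deposited expression table. Messenger RNA had been sequenced from the apical end, where the root forms, of first lower molar germs dissected at postnatal day 4 from mice of the C57BL/6 strain. Each of 2 genotypes had 6 libraries, 12 in all. Nfic-/- mice lack the transcription factor nuclear factor I/C and are called null here. The controls were their Nfic+/- littermates, which carry 1 functional copy, so there was no wild-type group. The labels name the libraries 5 to 10 in each genotype and give no further treatment. Each value is a tissue average, so fewer dividing cells and less RNA per dividing cell cannot be told apart.

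A cell enters the cycle when D-type cyclins with Cdk4 or Cdk6, followed by cyclin E with Cdk2, inactivate the retinoblastoma protein and release E2F transcription factors. E2F switches on the genes for loading replication origins, copying DNA and making nucleotides, and a later wave of genes, with cyclin A, cyclin B and Cdk1 at its centre, condenses, attaches and separates the chromosomes. In the growing molar, division is known in the apical mesenchyme and in the cervical loop and root sheath epithelium, whereas ameloblasts and odontoblasts have left the cycle when they secrete enamel and dentin matrix. Mice without Nfic are known for short or missing molar roots.

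The depth was 70.2 to 96.4 M reads per library, and even the scarcest cell cycle gene, Cdc6, had about 48 reads in its lowest library. Expression is given in RPKM, reads per kilobase of transcript and M reads. Nfic itself was listed at 11.3 to 24.5 RPKM (median 15.9) in the heterozygous libraries and at 7.90 to 16.5 RPKM (median 11.5) in the null ones. Null minus heterozygous came to -0.52 in log2(RPKM + 1) (exact 2-sided permutation test, p = 0.0303 over 924 assignments, n = 6 per genotype). Without heterozygous library 6 or 10, or null library 5 or 6, the exact permutation p lay between 0.0519 and 0.0628. Nfic transcript was present in every library labelled null and the groups overlapped. The deleted part of the gene is not given in the labels, and gene totals do not show it. Some libraries stood apart. Libraries 8 and 9 of both genotypes held intestinal transcripts, with Fabp2, an intestinal fatty acid carrier, at 59.6 to 69.4 RPKM against at most 0.0325 in the other 8. Null library 9 also held muscle transcripts, its 8 muscle markers summing to 29.7 RPKM against at most 5.83 RPKM in any heterozygous library. The tooth markers were present throughout, and the enamel matrix list took between 5.60% and 23.1% of all gene reads of a library. The 18 dental epithelium markers summed to 1953 to 2899 RPKM in the heterozygous libraries and 2375 to 3511 RPKM in the null ones, and 17 of 17 tested had a difference above 0 (median 0.30).

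No cell cycle gene passed the test for a genotype difference, yet nearly all had somewhat lower means in the null germs. Of the 59 genes, 56 had a mean of at least 1 RPKM and were tested with limma, a linear model with a variance shared across genes, fitted to all 12094 genes that pass this filter. None had a Benjamini-Hochberg adjusted p under 0.05, and none had an unadjusted p under 0.05. Unadjusted limma p ranged from 0.115 for Cdt1 to 0.944 for Cdk4, and the adjusted p of Cdt1 was 0.980. Over all 12094 genes the adjusted threshold was passed by 0, or 0%, and the unadjusted one by 329 lower in null (2.72%) and 317 higher in null (2.62%). In 53 of the 56 genes the fitted difference, null minus heterozygous, lay below 0, against 51.1% of all tested genes. With the median gene set equal in all libraries these were 52 of 56 and 39.5%. The median difference of the 56 was -0.20 in log2(RPKM + 1), and that of all tested genes was -0.0028. The genes are not independent of each other, as they were high or low in the same libraries, so the count of 53 has no test of its own. The ranges of the genotypes overlapped for all 59 genes, whereas 19 of 12094 genes, or 0.157%, had ranges apart.

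Markers of other cell types moved with the genotypes too, and several lists by more than the cell cycle genes. Of the tested follicle and ligament markers 11 of 11 lay below 0 (median -0.61), and the 12 on the list summed to 591 to 1395 RPKM in heterozygous and 281 to 1261 RPKM in null libraries. Of the dental mesenchyme markers 11 of 13 lay below 0 (median -0.48), with sums of 238 to 478 and 194 to 427 RPKM. Of the odontoblast markers 11 of 12 lay below 0 (median -0.46), with sums of 4171 to 6325 and 2724 to 5294 RPKM. Of the endothelial markers 8 of 8 lay below 0 (median -0.33), with sums of 28.2 to 58.6 and 15.6 to 47.2 RPKM. The dental epithelium markers lay above 0, as given above. Of the leukocyte markers 7 of 8 lay below 0 (median -0.31). An unadjusted limma p under 0.05 was found for 4 of 11 follicle and ligament, 4 of 13 mesenchyme and 6 of 12 odontoblast markers. It was found for 1 of 8 endothelial, 0 of 8 leukocyte and 6 of 17 dental epithelium markers, and for 646 of all 12094 tested genes. None of these markers had an adjusted limma p under 0.05, and the part of tissue makeup in the cell cycle differences was not tested.

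The size of the shared difference rested on few libraries. The median of the 56 genes was -0.08 without heterozygous library 10, -0.13 without heterozygous library 6 or without null library 6, and -0.31 without heterozygous library 5. In this order, the median of all tested genes moved the same way, to 0.027, 0.033, 0.029 and -0.045. Without both libraries numbered 6 the median of the 56 was -0.06, with 46 of 56 genes below 0. All tested genes then had a median of 0.063, with 25.8% below 0. Without the 4 libraries with intestinal transcripts the median of the 56 was -0.33, with 55 of 56 below 0. All tested genes then had a median of -0.023, with 58.9% below 0.

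The 3 genes left untested had low means, Cdc6 with 0.355 RPKM, Cdk6 with 0.655 RPKM and Dlgap5 with 0.776 RPKM. The tested genes nearest to the limit were Nek2 with 1.08 RPKM and Tk1 with 1.09 RPKM.

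**Figure D1:**
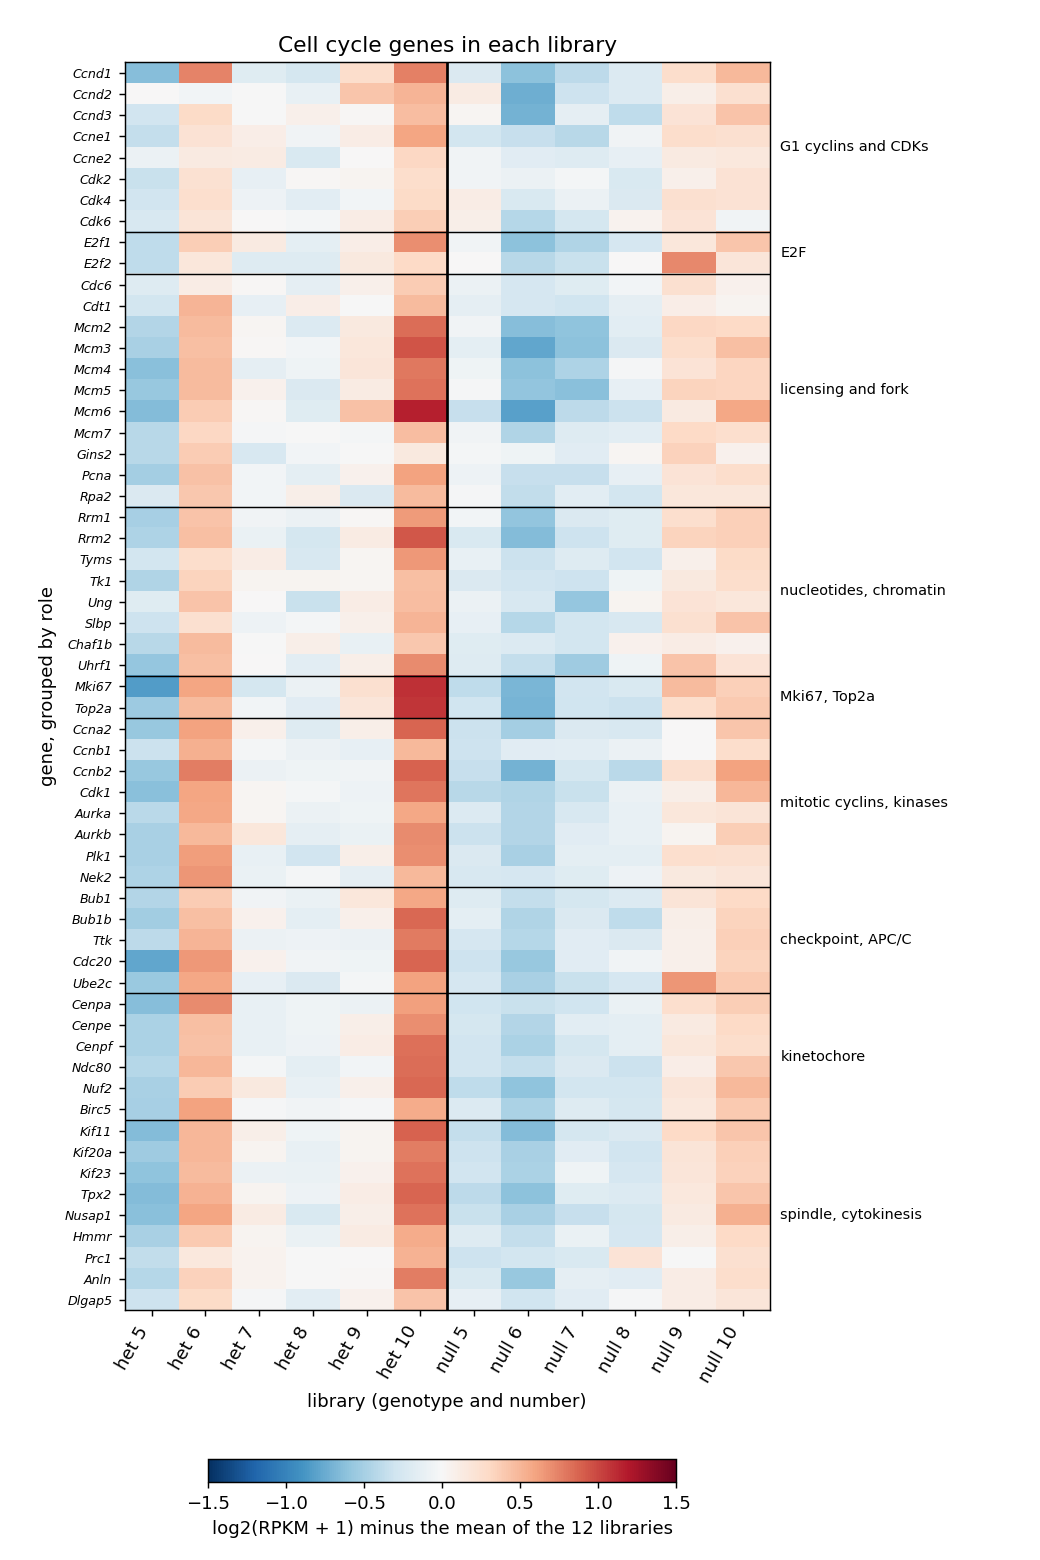
Level of each of the 59 cell cycle genes (rows, grouped by role) in each of the 12 libraries (columns, heterozygous left, null right), as log2(RPKM + 1) minus the gene's mean over the 12 libraries, red for above and blue for below. Heterozygous library 10 was the highest library for 50 of the 59 genes, against 2542 of all 12094 tested genes. Heterozygous library 5 or null library 6 was the lowest for 54 of the 59. Over all 12094 tested genes, heterozygous library 5 was the lowest for 4493 and null library 6 for 3283.

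The D-type cyclins, which couple growth signals to the start of the cycle, were among the most abundant of these genes. Cdk4, the kinase they activate, had the highest mean of all, 49.1 RPKM. Ccnd1, cyclin D1, ranged from 16.8 to 46.0 RPKM (median 27.8) in the heterozygous and from 17.2 to 37.7 RPKM (median 23.0) in the null libraries. Of its exon bases, 23.4% overlap LTO1 on the other strand. It was highest in heterozygous libraries 10 and 6 and lowest in heterozygous library 5, next to null library 6, so both ends of its range were in the control group. Ccnd2, cyclin D2, ran from 23.6 to 36.9 RPKM (median 25.6) in heterozygous and from 15.1 to 30.5 RPKM (median 24.7) in null libraries. Its difference of -0.26 had an SE of 0.165, and null library 6 was its lowest. Ccnd3, cyclin D3, ran from 18 to 30.9 RPKM (median 23.0) against 13.2 to 30.2 RPKM (median 21.4), again with null library 6 lowest.

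Cdk4 itself hardly varied. It lay between 39.8 and 59.5 RPKM (median 46.6) in heterozygous and between 41.1 and 57.6 RPKM (median 49.0) in null libraries, a difference of 0.01 with an SE of 0.121. Its highest library exceeded its lowest by a factor of 1.5, the smallest such ratio among the 59 genes, below the median of 1.72 over all tested genes. About 19.7% of its annotated exon bases are shared with Tspan31 on the other strand, a gene of similar abundance (mean 49.7 RPKM), and whether reads were counted by strand is not given. Cdk6, the sister kinase, had a mean of 0.655 RPKM, and Cdk4 exceeded it by a factor of 53.4 to 189 in each library.

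The next step of the cycle showed lower levels. Ccne1, cyclin E1, had a mean of 1.21 RPKM and Ccne2, cyclin E2, of 1.97 RPKM, so that Ccnd1 exceeded Ccne1 by a factor of 17.9 to 32.0. Cdk2, the partner of cyclin E, lay between 5.62 and 9.0 RPKM over all libraries, with a difference of -0.03 (SE 0.108). Ccne2 was the 1 gene of the 59 with its lowest level in heterozygous library 8.

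Both E2F genes of the set had low levels, and neither had an unadjusted limma p under 0.05. E2f1, an activator of S phase genes, ranged from 1.0 to 3.21 RPKM (median 1.82) in heterozygous and from 0.696 to 2.48 RPKM (median 1.35) in null libraries, a difference of -0.26 (SE 0.200). E2f2, a second activator, ranged from 1.16 to 2.45 RPKM (median 1.79) and from 1.11 to 3.64 RPKM (median 1.83), a difference of 0.05 (SE 0.182). Its highest value was in null library 9, and without that library the difference was -0.086. The 8 markers of red blood cell precursors, in which E2f2 is known to act, also summed highest there, to 3345 RPKM against 848 to 2209 RPKM in the other 11 libraries, and their part in the E2f2 value was not tested.

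Before S phase, Cdc6 and Cdt1 load the MCM helicase, a ring of Mcm2 to Mcm7, onto replication origins. Cdt1 had the smallest unadjusted p of the 56 genes. It ranged from 2.69 to 5.35 RPKM (median 3.60) in heterozygous and from 2.61 to 3.76 RPKM (median 3.06) in null libraries. Only 1 null library lay above the heterozygous median, heterozygous libraries 6 and 10 being the highest. The difference was -0.23 with an SE of 0.137 and an adjusted limma p of 0.980.

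The 6 MCM genes had similar means, from 3.43 RPKM for Mcm7 to 6.93 RPKM for Mcm6. Mcm6 had the lowest difference of all tested cell cycle genes, -0.39 with an SE of 0.281. It ranged from 3.69 to 15.5 RPKM (median 7.51) in heterozygous and from 3.18 to 9.98 RPKM (median 4.84) in null libraries. The value of 15.5 RPKM belonged to heterozygous library 10, where Mcm6 stood above its fellow subunits. There the most abundant MCM gene exceeded the least abundant by a factor of 3.10, against 1.45 in null library 6. Mcm3 followed with a difference of -0.35 (SE 0.245), Mcm2 with -0.28, Mcm5 with -0.23, Mcm4 with -0.21 and Mcm7 with -0.10.

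Other parts of the fork had smaller differences than the MCM genes apart from Mcm7. Pcna, the sliding clamp of the DNA polymerases, ranged from 4.8 to 11.6 RPKM (median 7.33) in heterozygous and from 5.5 to 8.94 RPKM (median 6.69) in null libraries, a difference of -0.14 (SE 0.177). Rpa2, which coats single-stranded DNA, had a difference of -0.16 (SE 0.143). Gins2, a part of the active helicase, was the gene of this role with the highest mean, 12.8 RPKM, and its difference was 0.06 (SE 0.127). It ranged from 9.23 to 16.8 RPKM (median 12.5) in heterozygous and from 11.2 to 16.4 RPKM (median 12.7) in null libraries. However, 67.3% of its annotated exon bases overlap Gse1 on the other strand, a gene with a mean of 13.8 RPKM. Its level is therefore uncertain. Of the 59 genes, 20 share exon bases with another gene, 4 of them over 20% or more of their exon length.

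Some promoters of this class hold words that match E2F sites. Shown are 3 genes of the MCM ring, picked because such a word lies before their start. Mcm3 has such words only after the start. None was found for Mcm2 or in a further window of Mcm7. The stretches are 100 bases long, from RefSeq on GRCm38.p6, in the direction of transcription, with E2F words of either strand in capitals.
Mcm6, chr1:128359733-128359832, minus strand: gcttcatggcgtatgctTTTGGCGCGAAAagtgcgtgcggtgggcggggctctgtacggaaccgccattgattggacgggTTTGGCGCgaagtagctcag
Mcm5, chr8:75109280-75109379, plus strand: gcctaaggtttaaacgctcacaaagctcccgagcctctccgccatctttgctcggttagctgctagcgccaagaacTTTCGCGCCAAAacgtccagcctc
Mcm7, chr5:138172029-138172128, minus strand: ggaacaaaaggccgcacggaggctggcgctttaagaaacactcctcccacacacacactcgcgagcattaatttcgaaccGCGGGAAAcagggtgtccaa
In Mcm6 and Mcm5 a run of capitals joins a word of each strand that overlap. The words begin 110, 106 and 47 bases before the RefSeq start of Mcm6, 153 and 149 bases before that of Mcm5, and 165 bases before that of Mcm7.

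Enzymes that supply nucleotides followed the same libraries. Rrm1, the large subunit of ribonucleotide reductase, had the highest mean of this class, 11.1 RPKM. It ranged from 7.28 to 17.3 RPKM (median 10.6) in heterozygous and from 6.74 to 13.9 RPKM (median 9.82) in null libraries, a difference of -0.15 (SE 0.194). Rrm2, the small subunit, which is made in S phase, had the wider range, a highest-to-lowest ratio of 4.21 against 2.56 for Rrm1. Tyms, thymidylate synthase, ranged from 1.07 to 2.93 RPKM (median 1.63) and from 1.0 to 2.07 RPKM (median 1.25), a difference of -0.18 (SE 0.159). Tk1, thymidine kinase, and Ung, which removes uracil from DNA, had differences of -0.15 and -0.16. Slbp, which binds histone mRNA, had -0.14, and Chaf1b, a subunit of the chromatin assembly factor, had -0.14. Uhrf1, which carries DNA methylation through replication, had -0.17. All 8 genes of this class lay below 0, with a median of -0.15.

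Mki67, the antigen used to count dividing cells, varied most among the tested genes. It ranged from 1.64 to 9.06 RPKM (median 3.98) in heterozygous and from 1.93 to 5.56 RPKM (median 2.95) in null libraries. Its highest library, heterozygous 10, exceeded its lowest, heterozygous 5, by a factor of 5.51, so the whole span of the 12 libraries lay within the controls. The difference between genotypes was -0.25 with an SE of 0.290. Top2a, which untangles DNA before chromosomes separate, ranged from 2.63 to 10.1 RPKM (median 4.58) and from 2.29 to 5.96 RPKM (median 3.32). Its difference was -0.32 (SE 0.250), and heterozygous libraries 10 and 6 were again highest.

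The cyclins and kinases of G2 and mitosis had a median difference of -0.21, with 8 of 8 genes below 0. Ccna2, cyclin A2, ranged from 4.09 to 12.8 RPKM (median 7.0) in heterozygous and from 4.31 to 9.05 RPKM (median 5.45) in null libraries. Its difference was -0.29 (SE 0.222), and 1 null library, number 10, lay above the heterozygous median. Cdk1, the mitotic kinase, ranged from 2.05 to 7.18 RPKM (median 3.71) and from 2.45 to 5.65 RPKM (median 3.08), a difference of -0.23 (SE 0.228). Ccnb1, cyclin B1, ranged from 0.803 to 2.27 RPKM (median 1.17) and from 0.829 to 1.71 RPKM (median 1.07), a difference of -0.15 (SE 0.155). Ccnb2, cyclin B2, was 3.36 to 5.95 times as abundant as Ccnb1 in each library and had a difference of -0.29 (SE 0.265). The Aurora kinases Aurka and Aurkb each had a difference of -0.21, the polo-like kinase Plk1 -0.17 and the centrosome kinase Nek2 -0.14.

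The spindle checkpoint holds a cell in metaphase until all chromosomes are attached, and its release through Cdc20 and Ube2c destroys cyclin B. Cdc20 ranged from 2.39 to 9.70 RPKM (median 4.83) in heterozygous and from 2.93 to 6.31 RPKM (median 4.39) in null libraries, a difference of -0.23 (SE 0.240). Bub1b, the checkpoint protein BubR1, ranged from 1.36 to 5.17 RPKM (median 2.54) and from 1.48 to 3.25 RPKM (median 1.98), a difference of -0.26 (SE 0.207). Its partner kinases Bub1 and Ttk had differences of -0.18 and -0.21.

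Ube2c, the ubiquitin-conjugating enzyme of the anaphase-promoting complex, broke the pattern in 1 library. It reached 7.73 RPKM in null library 9, its highest value, and its difference was -0.09 (SE 0.234), or -0.23 without that library. Of its annotated exon bases, 22.8% overlap Tnnc2, a fast muscle troponin, and Tnnc2 stood at 7.78 RPKM in null library 9 against 0.470 to 1.38 RPKM in the other 11. That library was also the one with muscle transcripts, and their part in the Ube2c value was not tested.

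Kinetochore genes, whose products fasten chromosomes to the spindle, lay below 0 in 6 of 6 cases with a median of -0.21. Nuf2, of the NDC80 complex, ranged from 1.46 to 5.28 RPKM (median 2.73) in heterozygous and from 1.27 to 3.82 RPKM (median 1.85) in null libraries, a difference of -0.29 (SE 0.221). Ndc80, its direct partner, had -0.23 and stayed at 0.633 to 0.959 times the level of Nuf2 in every library. Cenpa, the histone that marks centromeres, ranged from 2.23 to 7.22 RPKM (median 3.78) and from 3.0 to 5.53 RPKM (median 3.42), a difference of -0.13 (SE 0.215). Cenpe and Cenpf had -0.20 and -0.24, and Birc5, survivin, had -0.19.

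Genes of the spindle and of cytokinesis had the lowest class median among the G2 and mitosis roles with 5 or more genes, -0.24, with 8 of 8 below 0. Anln, the contractile ring protein anillin, had the smallest p of the role, with 1.17 to 3.97 RPKM (median 1.99) in heterozygous and 0.978 to 2.50 RPKM (median 1.64) in null libraries. Its difference was -0.24 (SE 0.184). Kif20a, a kinesin of the central spindle, had the highest mean, 4.45 RPKM, and ranged from 2.63 to 7.95 RPKM (median 4.41) and from 2.76 to 5.75 RPKM (median 3.49), a difference of -0.23 (SE 0.205). Of its exon bases, 29.3% overlap Cdc23, a subunit of the anaphase-promoting complex. The other kinesins Kif11 and Kif23 had -0.26 and -0.18, the spindle assembly factor Tpx2 -0.27, and the microtubule binders Nusap1, Hmmr and Prc1 -0.25, -0.18 and -0.12.

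**Figure D2:**
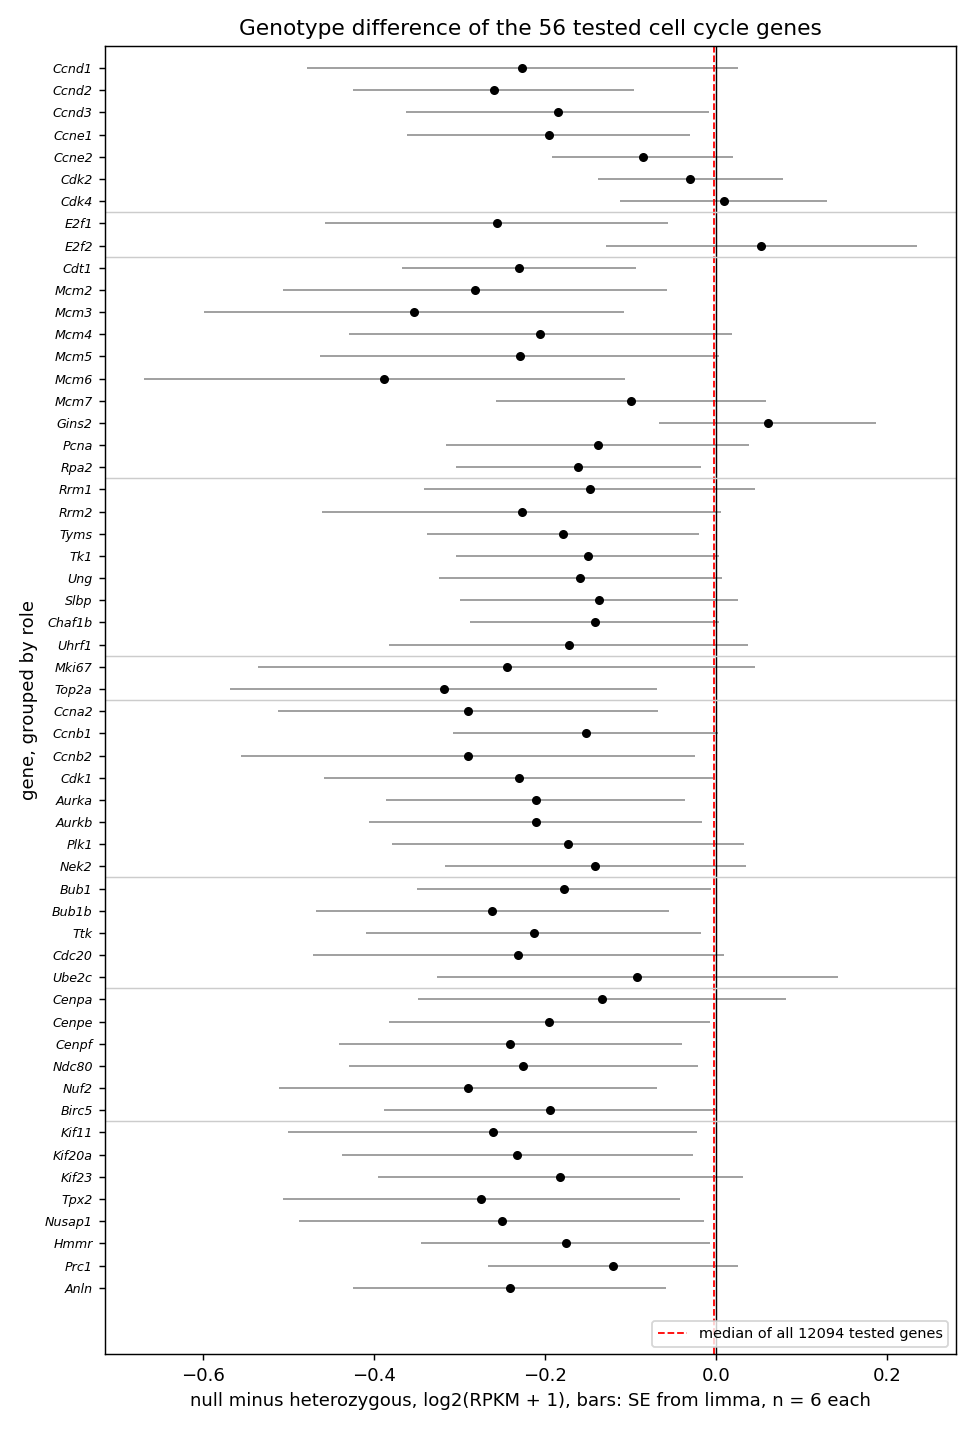
Fitted difference, null minus heterozygous, on the log2(RPKM + 1) scale (points) with its standard error from limma (bars, n = 6 libraries per genotype) for the 56 tested cell cycle genes, grouped by role, beside 0 (solid line) and the median of all 12094 tested genes (dashed line). The points lie between -0.39 for Mcm6 and 0.06 for Gins2, and 53 of 56 lie left of 0.

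Many members of the G2 and mitosis set, though not all, hold promoter words that did not enter the choice of the set. The 4 stretches of 100 bases shown come from RefSeq on GRCm38.p6 and lie at or upstream of the starts of genes described here, in the direction of transcription. Capitals mark the words TTTGAA or TTCGAA of the cell cycle homology region (CHR) and CCAAT, on either strand (TTCAAA and ATTGG where the word lies on the opposite strand).
Mki67, chr7:135716458-135716557, minus strand: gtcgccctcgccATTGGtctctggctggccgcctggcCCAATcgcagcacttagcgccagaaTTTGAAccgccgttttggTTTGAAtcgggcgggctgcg
Top2a, chr11:99024193-99024292, minus strand: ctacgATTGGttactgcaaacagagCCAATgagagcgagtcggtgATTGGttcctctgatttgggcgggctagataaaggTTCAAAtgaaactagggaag
Cdk1, chr10:69352908-69353007, minus strand: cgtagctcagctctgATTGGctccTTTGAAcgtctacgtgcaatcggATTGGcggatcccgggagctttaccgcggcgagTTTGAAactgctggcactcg
Cdc20, chr4:118437342-118437441, minus strand: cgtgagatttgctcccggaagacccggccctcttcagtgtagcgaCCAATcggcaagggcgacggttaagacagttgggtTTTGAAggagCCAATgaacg
The last CHR word of each stretch begins 98 bases before the RefSeq start of Mki67, 23 before that of Top2a, 15 before that of Cdk1 and 18 before that of Cdc20. These 4 stretches were picked among genes with a CHR word before the start. Bub1b also has one, 188 bases before its start, and is not shown, and its stretch holds no CCAAT. Cenpa and Anln have CHR words only after the start, and Ccnb1 has none in its window.

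Promoter windows of 300 bases, 250 before to 50 after the start, were found for 49 of the 59 genes, 54 windows in all. A CHR word was in 20 of 26 windows of the G2 and mitosis genes (76.9%), in 3 of 28 windows of the G1 and S genes (10.7%) and in 19.2% of all 32851 RefSeq windows. CCAAT was in 80.8%, 60.7% and 37.4%, and both words together were in 69.2%, 10.7% and 7.52%. The E2F words TTTCCCGC, TTTCGCGC, TTTGCCGC and TTTGGCGC ran the other way, with at least 1 in 9 of 28 G1 and S windows (32.1%), in 1 of 26 G2 and mitosis windows (3.85%), that of Cdk1, and in 2.26% of all windows. TTGGCA, a short word that nuclear factor I proteins bind, was in 7.14% of G1 and S, 15.4% of G2 and mitosis and 14.1% of all windows. This word can share bases with CCAAT on the opposite strand. Windows were counted, not genes, and the overlapping windows of Prc1 hold the same TTGGCA, CHR and CCAAT words. A match is a string of letters in a window and says nothing of binding.

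**Figure D3:**
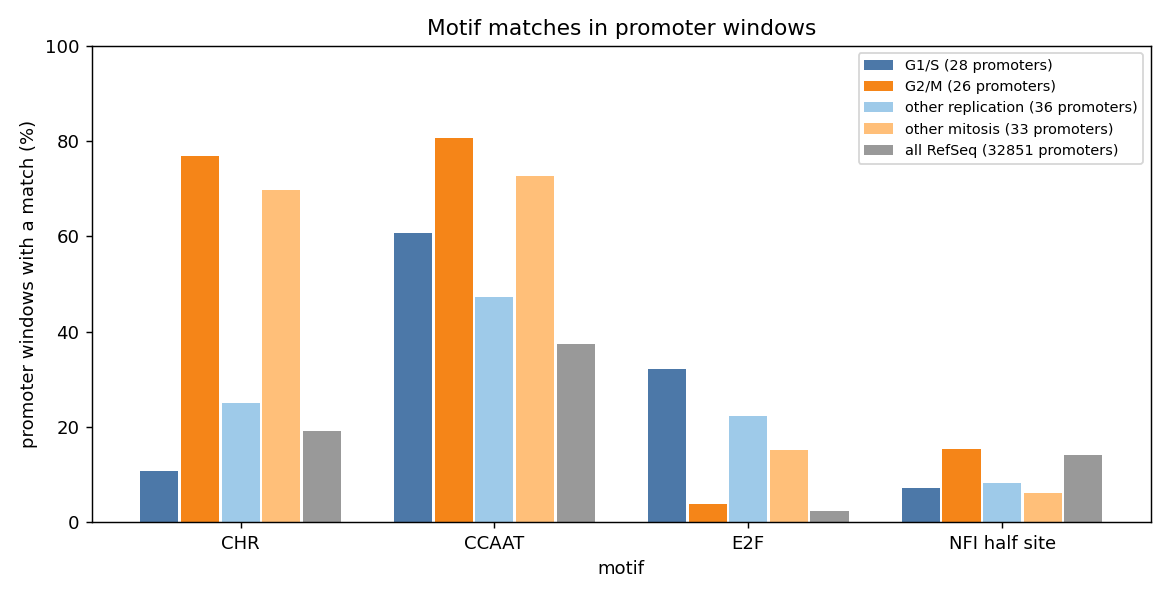
Percentage of promoter windows (250 bases before to 50 after the start) with at least 1 match on either strand, for 4 motifs (groups of bars) in the G1/S and G2/M genes, other replication and mitosis genes, and all RefSeq promoters (bars, with the number of windows in the key). CHR words are in 76.9% of G2/M windows against 10.7% of G1/S windows, and E2F words in 32.1% of G1/S windows against 3.85% of G2/M windows.

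Cell cycle levels ranged widely over the libraries of each genotype. The median level of the 30 G2 and mitosis genes, as log2(RPKM + 1), was 1.89 ± 0.461 (SD, n = 6) in heterozygous and 1.66 ± 0.289 (SD, n = 6) in null libraries. It ran from 1.25 in heterozygous library 5 to 2.58 in heterozygous library 10 among the controls, and from 1.31 in library 6 to 2.10 in library 10 among the nulls. For the 29 G1 and S genes it was 2.31 ± 0.338 and 2.10 ± 0.282. In both sets the same 4 libraries came first, heterozygous 10 and 6 and null 10 and 9, and the same 2 came last, heterozygous 5 and null 6. The median of all 12094 tested genes put the same libraries at both ends, over a narrower range. It was 2.91 to 2.96 in those 4 libraries, 2.52 in heterozygous library 5 and 2.54 in null library 6. The SD was larger among the control than among the null libraries in 53 of the 59 genes (median SD 0.42 against 0.30). Since these genes were high or low in the same libraries, this count has no test of its own. Over all tested genes the control SD was larger in 6528 of 12094, with medians of 0.20 and 0.18.

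The range over the libraries is given by role as a description with no test. The ratio of the highest to the lowest library had a median of 2.40 for G1 cyclins and their kinases, 3.94 for the 2 E2F genes, 3.29 for licensing and fork genes, 3.17 for nucleotide and chromatin genes, 3.85 for the checkpoint, 3.91 for the kinetochore and 3.91 for the spindle. It was 3.19 for mitotic cyclins and kinases. The median was 3.04 over the G1 and S set, 3.80 over the G2 and mitosis set and 1.72 over all tested genes. Within a library, the G2 and mitosis level lay 0.63 below the G1 and S level in heterozygous library 5 and 0.18 below it in heterozygous library 10. Mki67 stood at 0.342 times the level of Pcna in heterozygous library 5 and at 0.783 times in heterozygous library 10.

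**Figure D4:**
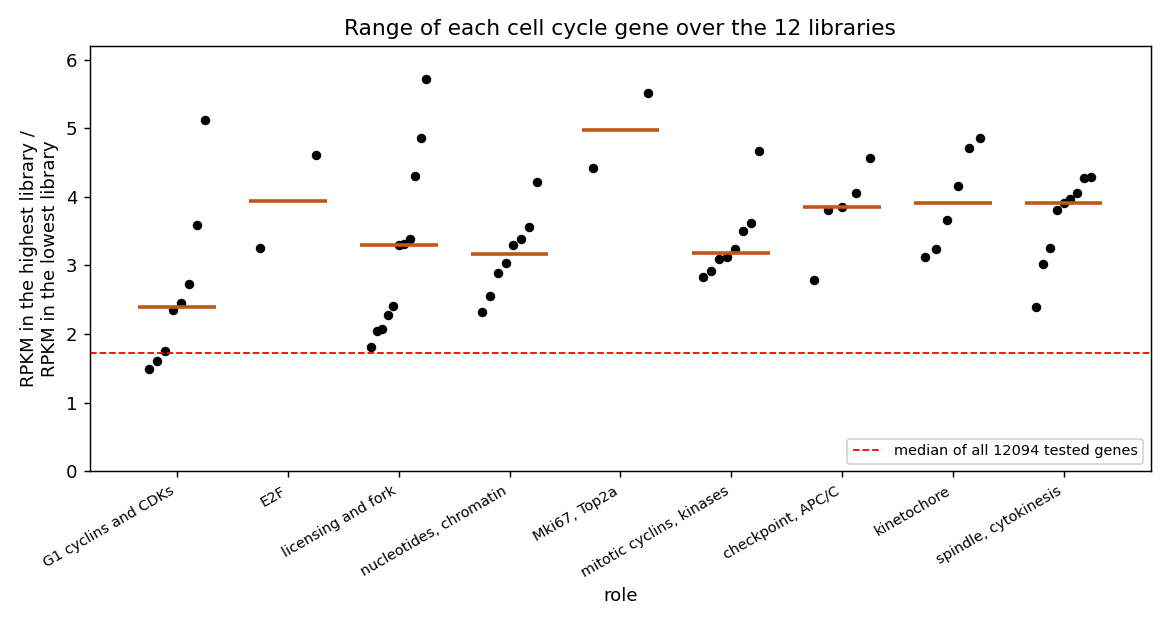
Ratio of RPKM in the highest to RPKM in the lowest of the 12 libraries (vertical axis, starting at 0) for each of the 59 cell cycle genes (points), by role, with the class median (bar) and the median of all 12094 tested genes (dashed line). The ratio runs from 1.5 for Cdk4 to 5.71 for Cdc6, and class medians run from 2.40 for the G1 cyclins and kinases to 4.97 for Mki67 and Top2a.

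This order of libraries ran against that of enamel transcripts. Amelx, which encodes amelogenin, the main enamel matrix protein, ranged from 28240 to 106179 RPKM in heterozygous and from 40547 to 102366 RPKM in null libraries. The 4 libraries with the highest cell cycle levels were the 4 with the lowest enamel sums, and the 2 with the lowest cell cycle levels had the 2 highest. The same holds for the median level of all tested genes, which had the same libraries at both ends. Over the 12 libraries, Mki67 and Amelx correlated with Pearson r = -0.922 (permutation p = 5.0e-05, adjusted over 5 relations 0.00025) and Spearman rho = -0.937 (permutation p = 8.0e-05, adjusted 0.0004). Without heterozygous libraries 6 and 10, the farthest from the Amelx median, r was -0.950. It was -0.991 in libraries 5 to 7 (exact permutation p = 0.00417, n = 6) and -0.913 in libraries 8 to 10 (exact permutation p = 0.0111, n = 6). It was -0.891 within the heterozygous and -0.976 within the null libraries. Amelx alone took 3.4% to 13.5% of gene reads, and RPKM is relative to all reads of a library. With the median gene set equal in all libraries r was -0.896.

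The other 4 relations were weaker or rested on the scaling. Mki67 correlated with Lum, a follicle and ligament gene (r = 0.837, rho = 0.818, adjusted permutation p for r = 0.00133), with 0.743 once the median gene was set equal. Without its 2 farthest libraries r was 0.823. With Msx2, a dental mesenchyme gene, r was 0.836 and rho 0.839 (adjusted permutation p for r = 0.00133) and 0.796 without 2 libraries, but 0.658 in libraries 8 to 10 (exact permutation p = 0.146, n = 6) and 0.281 with the median gene set equal. With Krt5, a keratin of the dental epithelium, r was -0.373 and rho -0.434 (adjusted permutation p for r = 0.234), against -0.772 with the median gene set equal. With Col1a1, the collagen of odontoblasts and bone, r was 0.401 and rho 0.301 (adjusted permutation p for r = 0.234). The 5 marker genes were the most abundant of their lists, and a relation of 1 gene is not that of its list. Msx2 had a genotype difference of -0.0083 (SE 0.133), where the dental mesenchyme list had a median of -0.48.

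**Figure D5:**
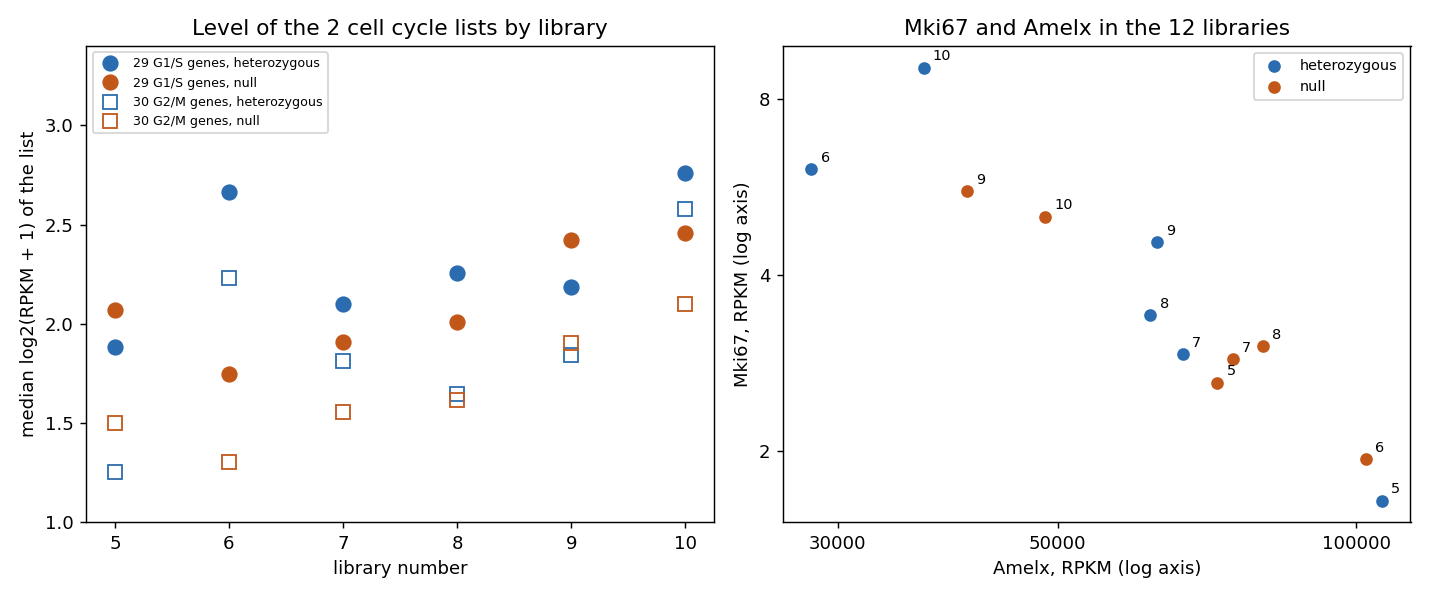
Left, median log2(RPKM + 1) of the 29 G1/S genes (filled circles) and the 30 G2/M genes (open squares) in each library, by number and genotype (blue heterozygous, orange null). Right, RPKM of Mki67 against RPKM of Amelx in the 12 libraries, both axes logarithmic, with library numbers. Libraries high in Amelx are low in Mki67 (r = -0.922), and both genotypes lie along the same band.

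By library number, libraries 5 to 7 were set apart from libraries 8 to 10, each set with 3 of either genotype. Sample-sheet numbers in the column names do not repeat within a set, but most occur in both sets. The column names do not say which libraries shared a sheet. The labels do not speak of sequencing runs. The median difference of the 56 genes was -0.29 in libraries 5 to 7, with 54 below 0, and -0.09 in libraries 8 to 10, with 49 below 0. Over all tested genes these medians were -0.03 and 0.02, with 59.3% and 44.3% of genes below 0. The interaction of genotype with set was called by limma in 0 of 12094 genes, or 0%, with 78 genes and none of the 56 at an unadjusted p under 0.05.

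Other genes of the pathway gave smaller differences. Of 90 further cell cycle genes in 3 lists, 78 were tested, none was called, 65 lay below 0 and the median was -0.09. The 33 tested genes of the further mitosis list all lay below 0 (median -0.13), among them Racgap1, a regulator of cytokinesis (-0.30, SE 0.206), and the spindle gene Ckap2l (-0.28). Of 31 tested replication genes, 23 lay below 0 (median -0.06). Orc5, of the origin recognition complex, was the 1 gene of the 78 with an unadjusted limma p under 0.05, and it lay above 0 (0.18, SE 0.0761, adjusted p of 0.934). It ran from 26.9 to 32.9 RPKM in heterozygous and from 29.7 to 38.7 RPKM in null libraries. Orc2, of the same complex, had a difference of 0.09.

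The genes that govern E2F and the mitotic wave split. Of 14 tested genes of the retinoblastoma and DREAM list, 9 lay below 0, with a median of -0.01. Rb1, the retinoblastoma gene, ran from 15.3 to 19.6 RPKM in heterozygous and from 16.3 to 21.9 RPKM in null libraries, a difference of 0.14 (SE 0.0853). It was highest in null library 6 and lowest in heterozygous library 10. Of the 59 cell cycle genes, 50 were highest in heterozygous library 10, whereas 24 were lowest in null library 6 and 30 in heterozygous library 5. Lin37, a DREAM subunit, had a difference of 0.10. Foxm1, an activator of mitotic genes, ran from 1.15 to 4.25 RPKM and from 1.18 to 2.86 RPKM, a difference of -0.23 (SE 0.203), with the same highest and lowest libraries as Mki67. Mybl2, its partner, had a mean of 0.939 RPKM and was not tested.

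The brakes on the kinases ranged widely in level. Of 7 genes for CDK inhibitors 5 were tested, 3 lay below 0 and none was called. Cdkn2a and Cdkn2b, with means of 0.0575 and 0.850 RPKM, were not tested. Cdkn1c, p57, ran from 39.5 to 106.6 RPKM (median 65.9) in heterozygous and from 21.7 to 103.9 RPKM (median 37.1) in null libraries. Its difference was -0.66 (SE 0.320, adjusted limma p of 0.941), and 1 null library, number 10, lay above the heterozygous median. Cdkn2c, p18, had a difference of -0.35 (adjusted limma p of 0.980). Both were highest in heterozygous library 10, as were 50 of the 59 genes and 2542 of all 12094 tested genes. Both were lowest in null library 6. Cdkn1a, p21, named here after its values were seen, had the highest mean of this list, 154.7 RPKM. It was lowest in heterozygous library 10 and had a difference of 0.15 (SE 0.0978).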

How the data were processed

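The authors deposited 1 table of log2 RPKM values for 12 libraries. TopHat2 and the build mm10 are named in the submitters' processing notes. For the counting tool, its use of strand and the gene models, the entry is: not given in the sources used here. Base 2 was settled from the values, since over gene length base 2 gave a share of 0.773 to 0.835 of all reads, whereas base e gave 8.23 to 28.4 times as many as were read. Low values came out as whole reads within 0.02 reads in 98.5% of 10980 cases, which gave the depth. Genes without reads carried 0.9 reads.

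Values were turned back to RPKM and tested as log2(RPKM + 1) in genes averaging at least 1 RPKM, with limma 3.58.1 (R 4.3.3), a variance trend, genotype as the only term and Benjamini-Hochberg adjustment at 0.05. The linear RPKM first assumed were thus recovered, and the planned test was kept. The fit was tested on simulated data. Identifiers of 24987 genes matched GENCODE M21 (GRCm38), from which exon overlaps were taken, and 912 did not. Correlations used 100000 permutations, or all of them for n = 6. Python 3.11.15, numpy 2.4.6, scipy 1.17.1, pandas 2.3.3 and matplotlib 3.10.9 were used. In each role, the genes with the highest mean and the smallest p were described in full, besides 9 genes named in any case. The members, lists and rules were chosen with earlier results of these data known. Promoter sequences are RefSeq's. No label says that each library is a separate animal, so p-values measure only the spread between these libraries.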

Additional observations from a re-analysis of the deposited data

How the results depend on the processing

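No cell cycle gene was called under any of the 33 other settings, and the median difference stayed below 0 in all of them, between -0.27 and -0.04 for the G1 and S genes and between -0.34 and -0.07 for the G2 and mitosis genes. Library weights gave 17 calls over all genes, none of them a cell cycle gene, where the other settings gave 0 calls (646 genes at an unadjusted p under 0.05 in the reported fit). The share of all genes below 0 was 51.1% as reported, 39.5% with the median gene set equal and 41.7% when scaled without the enamel genes. The library number as a replicate block gave 0 calls over all genes and 981 genes at an unadjusted p under 0.05, among them Mcm6 (adjusted limma p of 0.588) and Ccnd2 (adjusted limma p of 0.553). The series text speaks of pairs but no label ties a number to a litter. Deviations of same-numbered libraries correlated at 0.492, 0.00502, 0.310, 0.667, 0.688 and 0.802 for numbers 5 to 10, and 3 of the 6 pairs were each other's best match. Nfic was lower in the null library for 6 of 6 numbers (mean -0.52, exact sign-flip permutation p = 0.0312, the smallest that 6 numbers allow), a test added after the data had been seen. Unpaired, the Nfic difference lost p under 0.05 with several libraries left out, ranging from -0.63 to -0.40, and was -0.57 within numbers 5 to 7 and -0.47 within 8 to 10 (exact permutation p = 0.2 each, where 0.1 is the smallest possible), and -0.56 without libraries 8 and 9.

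Signs turned for 5 of the genes described in full, and the cause was not tested. With libraries left out, Cdk4 ranged from -0.068 to 0.108, E2f2 from -0.086 to 0.180, Gins2 from -0.017 to 0.162, Rrm1 from -0.27 to 0.027 and Cenpa from -0.28 to 0.047. Within numbers 5 to 7, Cdk4 was -0.035 and E2f2 -0.117, and within 8 to 10 Cenpa was 0.022. Without libraries 8 and 9, Cdk4 was -0.043, E2f2 -0.116 and Gins2 -0.017. The relations of Mki67 under equal medians and without libraries 8 and 9 were added after the data had been seen, and without those libraries the r with Amelx was -0.933. Windows from 150 bases before the start held CHR words in 76.9% of G2 and mitosis and 12% of all promoters. The scarcest of these genes had about 48 reads in its lowest library, and the median SE of a difference was 0.19.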
